A study of Mus musculus with 6 samples.

Results

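Cell cycle and DNA replication genes were examined as a set of 40 genes, picked by symbol and kept where the mean raw count over the libraries was at least 10. All 40 listed genes met that rule, out of 44678 genes in the count files and 13024 genes that passed the filter on low counts. They comprise 22 mitotic genes, 10 S-phase genes (Mcm2 to Mcm7, Pcna, Rrm1, Rrm2 and Tyms, called the S-phase core here) and 8 other genes of the G1/S transition. The data are 6 RNA-seq libraries of mouse spleen, 3 from wild-type mice (WT1, WT2 and WT3) and 3 from miR-144/451 knockout mice (KO1, KO2 and KO3). KO mice carry a deletion of the locus from which miR-144 and miR-451 are made, and both genotypes were C57BL/6J young adults. Each library was labelled as untreated CD8a+ leukocytes, whereas the study's text describes its transcriptome sequencing in the context of dendritic cells, so that it is uncertain which cells the values describe. The study's methods describe magnetic bead sorts of CD11c+ dendritic cells, CD8+ T cells and CD4+ T cells, but the sources used here do not tie any of these sorts to the sequenced samples or say whether mice were pooled.

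A dividing cell copies its DNA in S phase and separates the copies in mitosis, and different genes serve each step. The MCM proteins form the ring-shaped helicase that is loaded onto DNA in G1, PCNA is the sliding clamp of the replication polymerases, and ribonucleotide reductase and thymidylate synthase supply the nucleotides. Mitotic genes such as cyclin B, Cdk1, the Aurora kinases and the spindle motors are switched on late in the cycle, so their mRNA is abundant in cells that divide and scarce in resting lymphocytes. In the spleen of the mouse, dividing cells include red cell precursors, activated lymphocytes and myeloid precursors.

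The 22 mitotic genes varied together from library to library and the helicase genes varied little, so promoters of both classes are shown first. RefSeq promoter windows on GRCm38.p6, which run from 250 bases before to 50 bases after the annotated start, were on hand for 33 of the 40 genes, 18 of them mitotic. A gene with several annotated starts, such as Mcm7 or Uhrf1, has several windows. Windows are therefore counted by gene, a gene being a match where any of its windows matched. Searched on both strands, the letters TTTGAA, which are the CHR element of late cell cycle genes, occurred in 13 of the 18 mitotic windows (72.2%), in 1 of the 9 S-phase core windows (Mcm2), in 0 of the 6 other G1/S windows, and in 20.2% of the windows of all 27025 genes. The other letters searched for that element, TTTAAA, occurred in 6 of 18 mitotic, 2 of 9 S-phase core, 3 of 6 other G1/S and 14.9% of all windows. The CCAAT box occurred in 16 of 18 mitotic windows, 8 of 9 S-phase core windows, 1 of 6 other G1/S windows and 41.1% of all windows. E2F-like letters (TTTCCCGC, TTTGGCGC, TTTCGCGC or TTTGCCGC, which can overlap on opposite strands) occurred in 4 of 9 S-phase core genes, 3 of 6 other G1/S genes, 1 of 18 mitotic genes and 704 of the 27025 genes. In 12 of the mitotic genes a TTTGAA began within 50 bases of the start, on either side of it. In Aurka, Bub1b, Ccnb2, Cdca8, Cenpf, Hmmr and Plk1 it lay after the start, and in Cdc20, Cdk1, Kif11, Top2a and Ube2c before it. These matches describe letters in a window and do not show that a factor binds there.

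The 160 bases before the start of 3 mitotic and 2 helicase genes, picked as examples, are printed 5′ to 3′ on the strand of the gene. Capitals mark TTTGAA, the CCAAT box and E2F-like letters on either strand, so that ATTGG is a CCAAT box and TTCAAA is TTTGAA read on the other strand, and the E2F-like matches that overlap run together in Mcm5 and Mcm6. Cdk1 lies at chr10:69352913-69353072 on the minus strand, Cdc20 at chr4:118437344-118437503 on the minus strand, Ube2c at chr2:164769769-164769928 on the plus strand, Mcm5 at chr8:75109349-75109508 on the plus strand and Mcm6 at chr1:128359706-128359865 on the minus strand (GRCm38.p6).
Cdk1: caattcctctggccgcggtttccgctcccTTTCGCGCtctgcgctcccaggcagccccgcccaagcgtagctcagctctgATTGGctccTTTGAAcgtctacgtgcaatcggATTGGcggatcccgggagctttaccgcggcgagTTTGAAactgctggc
Cdc20: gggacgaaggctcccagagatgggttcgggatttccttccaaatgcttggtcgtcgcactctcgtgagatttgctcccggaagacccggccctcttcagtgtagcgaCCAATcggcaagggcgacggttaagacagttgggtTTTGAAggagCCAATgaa
Ube2c: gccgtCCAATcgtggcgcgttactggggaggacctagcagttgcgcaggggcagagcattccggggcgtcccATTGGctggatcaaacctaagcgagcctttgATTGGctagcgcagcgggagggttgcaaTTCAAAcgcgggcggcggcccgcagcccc
Mcm5: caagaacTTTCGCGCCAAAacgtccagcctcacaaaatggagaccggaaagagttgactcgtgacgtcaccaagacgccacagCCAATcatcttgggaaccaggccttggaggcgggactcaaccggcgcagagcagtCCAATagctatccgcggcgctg
Mcm6: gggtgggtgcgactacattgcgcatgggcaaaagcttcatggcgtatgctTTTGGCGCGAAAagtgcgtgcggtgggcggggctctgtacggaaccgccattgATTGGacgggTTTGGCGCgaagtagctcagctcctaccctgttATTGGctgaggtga
The 3 printed mitotic stretches carry TTTGAA close to their right end, next to a CCAAT box in Cdc20. The 2 printed helicase stretches carry none, while Mcm2, not printed, carries TTTGAA from 70 to 65 bases before its start. Cdk1 carries E2F-like letters as well as TTTGAA, and was the one mitotic window that did.

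Levels are given as CPM (counts per 1000000 counts of a library) after TMM scaling, which adjusts library totals for composition, and 3 values in a row are those of replicates 1, 2 and 3 of a genotype. The libraries held between 8143971 and 8876570 counts, so that the floor of 3 counts corresponds to 0.342 to 0.372 CPM on this scale, which covers counting error only. The 40 genes had between 24 and 1588 counts in a library. Nothing in the labels says more about how the samples were obtained, so p-values measure the spread between these 6 libraries. The mature microRNAs are too short for this kind of library, and the genes Mir144 and Mir451a were at 0 counts in all 6 libraries, so the deletion could not be checked here.

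Cell type markers were present for more than CD8 T cells. The 6 CD8 T cell markers, Cd8a and Lck the highest, summed to 2517 to 3420.4 CPM in WT and 1740.2 to 3278 CPM in KO, and KO2 was the lowest for 6 of 6. The 10 erythroid precursor markers (among them the globin genes Hbb-bs and Hba-a2) summed to 251 to 865 CPM in WT and 451 to 2718 CPM in KO, with none at 0 in a library, 10 of 10 highest in KO2 and 9 of 10 lowest in WT3. The 6 B cell markers summed to 1367 to 2382 CPM in WT and 1194 to 2765 CPM in KO, the neutrophil precursor markers to 53.6 to 263 CPM in WT and 98.3 to 327 CPM in KO, and the monocyte and macrophage markers to 1138 to 1815 CPM in WT and 1219 to 2228 CPM in KO. Summed markers lay at 189.8 to 355 CPM in WT and 205 to 311 CPM in KO for activated T cells, at 47.5 to 94.1 CPM in WT and 41.7 to 103 CPM in KO for CD4 T cells, at 70.2 to 94.3 CPM in WT and 66.4 to 107 CPM in KO for germinal center B cells, and at 355 to 846 CPM in WT and 461 to 768 CPM in KO for plasma cells. They lay at 201 to 218 CPM in WT and 244 to 264 CPM in KO for dendritic cells, at 111 to 117 CPM in WT and 111 to 140.1 CPM in KO for NK cells, and at 9.11 to 11.0 CPM in WT and 8.0 to 13.7 CPM in KO for megakaryocytes. In such bulk samples fewer cells of a type and less RNA per cell cannot be told apart.

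None of the 40 genes passed an adjusted p of 0.05 between KO and WT (edgeR quasi-likelihood test, Benjamini-Hochberg adjustment over 13024 genes), where 4 genes, or 0.0307% of all genes tested, did (Slfn8, Slfn9, Xaf1 and Gm20388, named after their values were seen). At an unadjusted p under 0.05 there was 1 gene, Aurkb, against 6.25% of all genes, and DESeq2 and limma voom also called 0 of 40, each with 1 at an unadjusted p under 0.05. The shares over all genes are those of edgeR, and DESeq2 called more genes over the whole table, as given further below. All 22 mitotic genes had a fitted KO over WT log2 fold change above 0 (median 0.26), Kif20a turning to -0.00020 with upper-quartile scaling, compared with 5 of 10 in the S-phase core (median 0.0065, which turned to -0.0041 with that scaling), 6 of 8 other G1/S genes (median 0.059) and 50.6% of all genes (median 0.0029). Each of these medians was smaller than the spread between libraries, and KO and WT did not overlap for 1 of 40 genes, where 11.5% of all genes did not overlap. The size of the mitotic median rested on KO2 and WT3. It was 0.038 with 14 of 22 above 0 without KO2, and 0.086 with 16 of 22 above 0 without WT3, against 0.43 with 22 of 22 above 0 without WT1 or without KO1.

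**Figure D1:**
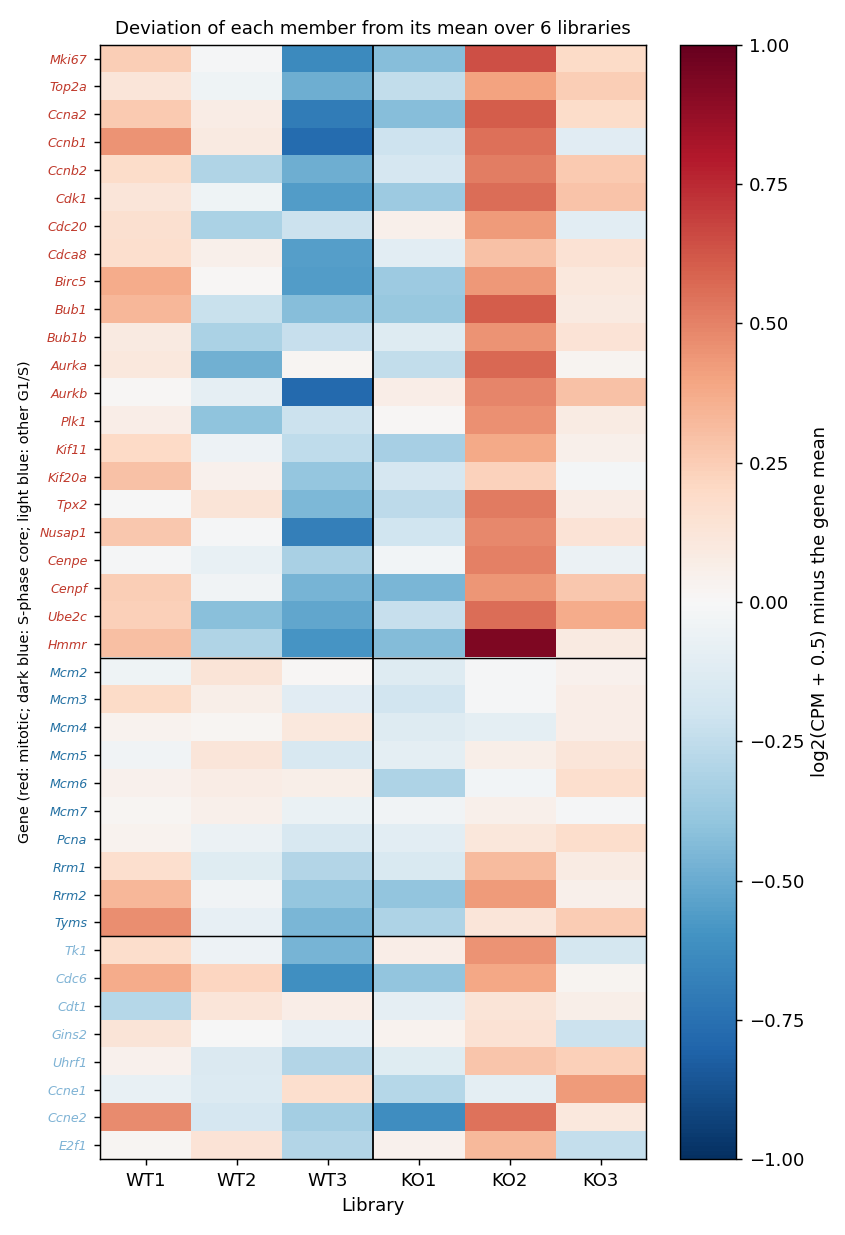
Level of each of the 40 genes in each of the 6 libraries, as the difference of its log2(CPM + 0.5) from its own mean over the libraries, with genes in rows by class and libraries in columns. The mitotic rows are highest in KO2 in 21 of 22 cases and mostly lowest in WT3, and the Mcm rows show little difference.

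Mki67, the gene of the Ki-67 antigen that marks cycling cells (chr7:135689784-135716361, minus strand), was the most abundant mitotic gene in CPM. It stood at 145, 121 and 78.1 CPM in WT and 90.5, 191 and 139 CPM in KO, a mean ± SD of 114 ± 33.6 CPM against 140.0 ± 50.1 CPM (n = 3 each). KO2 was the highest and WT3 the lowest library, and WT1 lay above both KO1 and KO3, so the groups overlapped. The fitted log2 fold change was 0.29 ± 0.29 (SE), with an edgeR adjusted p of 0.875. Top2a, the topoisomerase that untangles chromosomes before they separate, had 96.2, 85.6 and 62.7 CPM in WT and 74.5, 117 and 105 CPM in KO, again highest in KO2 and lowest in WT3. Its fold change was 0.28 ± 0.20 on the log2 scale.

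Cyclins and their kinase were highest and lowest in the same libraries, at lower levels. Ccna2, the cyclin of S phase and G2, had 28.9, 25.3 and 14.6 CPM in WT and 17.8, 36.7 and 27.3 CPM in KO. Ccnb1, the main mitotic cyclin, had 15.0, 11.6 and 6.19 CPM in WT and 9.36, 16.2 and 10.1 CPM in KO. Ccnb2, its close relative, had 14.7, 10.4 and 9.04 CPM in WT and 11.4, 18.6 and 15.5 CPM in KO. In each of these the highest library was KO2 and the lowest WT3, and WT1 exceeded KO1. Cdk1, the kinase that binds these cyclins, had 10.2, 9.11 and 6.19 CPM in WT and 7.16, 14.0 and 11.5 CPM in KO. Ccna2 shares 12.5% of its exon bases with Exosc9 on the opposite strand. Fitted log2 fold changes were 0.25 ± 0.31 for Ccna2, 0.11 ± 0.34 for Ccnb1, 0.42 ± 0.25 for Ccnb2 and 0.35 ± 0.30 for Cdk1, each less than 2 standard errors from 0.

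Aurkb, the kinase of the chromosomal passenger complex, was the one gene whose KO libraries all lay above its WT libraries. It had 12.1, 11.3 and 6.81 CPM in WT and 12.6, 17.0 and 14.9 CPM in KO, with means of 10.1 ± 2.83 CPM and 14.8 ± 2.23 CPM. The gap was small, since KO1 and WT1 differed by less than the counting error of either. Its log2 fold change was 0.56 ± 0.24, with an unadjusted p of 0.0499 and an edgeR adjusted p of 0.786, so that it did not pass. The other subunits of that complex did not separate: Birc5 (survivin) had 16.1, 12.4 and 8.17 CPM in WT and 9.47, 16.8 and 13.3 CPM in KO. Cdca8 (borealin) had 16.3, 14.9 and 9.66 CPM in WT and 13.4, 17.8 and 16.0 CPM in KO. Both were highest in KO2 and lowest in WT3, with WT1 next to KO2.

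The mitotic kinases and checkpoint genes did not share 1 lowest library. Aurka, the centrosomal Aurora kinase, had 9.0, 5.81 and 8.42 CPM in WT and 6.93, 12.6 and 8.46 CPM in KO. Plk1, which drives entry into mitosis, had 15.5, 11.0 and 12.6 CPM in WT and 14.9, 20.4 and 15.7 CPM in KO. Bub1b, the checkpoint protein BubR1, had 20.8, 15.6 and 16.6 CPM in WT and 17.8, 26.9 and 21.5 CPM in KO. For these 3 genes WT2 and not WT3 was the lowest library, while KO2 remained the highest. Bub1, the partner kinase at the checkpoint, had 8.09, 5.35 and 4.58 CPM in WT and 4.74, 9.84 and 6.74 CPM in KO and was lowest in WT3, as was Cdk1. Adjusted p-values of the edgeR test lay between 0.786 and 0.992 over all 22 mitotic genes.

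Cdc20 and Ube2c serve the anaphase-promoting complex, which destroys cyclin B at the end of mitosis. Cdc20, its activator, had 18.6, 13.2 and 14.2 CPM in WT and 17.2, 22.4 and 15.4 CPM in KO, with WT2 the lowest library. Ube2c, the ubiquitin-conjugating enzyme of that complex, had 17.1, 10.7 and 9.91 CPM in WT and 12.2, 21.5 and 18.9 CPM in KO. Both were highest in KO2, and for Ube2c KO1 lay between the WT libraries. Of the exon bases of Ube2c, 22.8% are shared with Tnnc2 on the opposite strand, and the use of strand in counting is not given in the sources used here, so that its level is uncertain to that extent.

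Spindle and kinetochore genes included both the widest and the narrowest range of the mitotic class. Hmmr, a spindle-associated protein, had 9.57, 6.15 and 4.95 CPM in WT and 5.55, 15.1 and 8.23 CPM in KO, a 3.05-fold range from WT3 to KO2 and the widest of the 40 genes. Kif11, the motor that pushes spindle poles apart, had 31.3, 26.2 and 22.7 CPM in WT and 21.5, 35.5 and 28.1 CPM in KO, and was lowest in KO1. Kif20a, a motor of cytokinesis, had 20.5, 17.2 and 12.6 CPM in WT and 14.8, 19.6 and 16.5 CPM in KO, and was the only mitotic gene highest in WT1. Kif20a had the smallest mitotic log2 fold change, 0.012 ± 0.21, and shares 29.3% of its exon bases with Cdc23. Tpx2 and Nusap1, which organise spindle microtubules, ranged from 12.5 to 25.0 CPM and from 8.42 to 19.6 CPM. Cenpe and Cenpf, proteins of the kinetochore, ranged from 11.9 to 21.5 CPM and from 9.04 to 17.4 CPM, each with its low in WT3 and its high in KO2.

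**Figure D2:**
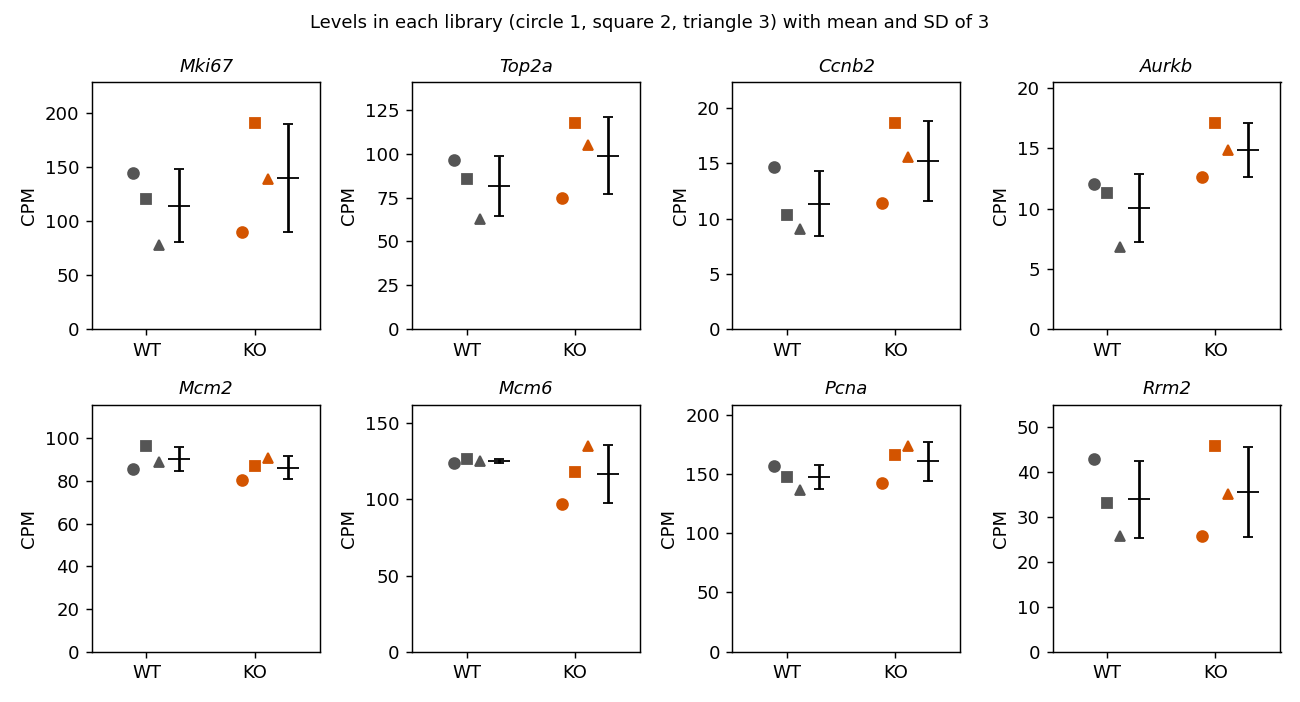
CPM of Mki67, Top2a, Ccnb2, Aurkb, Mcm2, Mcm6, Pcna and Rrm2, 1 point per library, with the mean and SD of the 3 libraries of each genotype beside the points. The KO and WT points of Mki67 and Top2a interleave, and those of Mcm2 and Mcm6 lie within a narrow band apart from Mcm6 in KO1, at 97.2 CPM.

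The 6 helicase genes varied little across libraries, with ranges from lowest to highest library of 1.09-fold for Mcm7 to 1.39-fold for Mcm6. Mcm2 had 85.5, 96.3 and 88.7 CPM in WT and 80.3, 87.0 and 90.9 CPM in KO. Mcm4 had 94.4, 93.3 and 98.9 CPM in WT and 84.0, 85.8 and 96.3 CPM in KO. Mcm7 had 83.2, 85.3 and 78.5 CPM in WT and 80.2, 85.1 and 81.4 CPM in KO, the narrowest range of the 40 genes. The genotypes overlapped in each of them, and Mcm4 was highest in WT3, the library where most mitotic genes were lowest. Mcm6 had 124, 127 and 125 CPM in WT and 97.2, 118 and 135 CPM in KO, so that its WT libraries differed by little and KO1 was the lowest. Mcm3 had 97.6, 88.9 and 78.8 CPM in WT and 74.7, 84.4 and 89.1 CPM in KO, and Mcm5 had 72.2, 80.4 and 66.3 CPM in WT and 69.2, 77.0 and 80.5 CPM in KO. Over these 6 genes the median log2 fold change was -0.082 and 1 of 6 (Mcm5) was above 0, with edgeR adjusted p-values from 0.854 to 0.996. Mcm7 shares 12.6% of its exon bases with neighbours, among them Ap4m1, Cops6, Mir25 and Mir93.

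The remaining S-phase core genes supply the clamp and the nucleotides. Pcna had 157, 148 and 137 CPM in WT and 142, 166 and 174 CPM in KO, a log2 fold change of 0.13 ± 0.10. Rrm1, the large subunit of ribonucleotide reductase, had 73.1, 59.6 and 52.9 CPM in WT and 58.3, 81.0 and 68.9 CPM in KO. Rrm2, its small subunit, which is made mainly in S phase, had 42.8, 33.0 and 25.8 CPM in WT and 25.6, 45.7 and 35.1 CPM in KO. Rrm1 and Rrm2 were both highest in KO2, with WT1 next to it. Tyms, thymidylate synthase, had 13.6, 9.11 and 6.94 CPM in WT and 7.74, 10.6 and 11.7 CPM in KO, highest in WT1. From lowest to highest library Pcna ranged 1.27-fold, Rrm1 1.53-fold, Rrm2 1.78-fold and Tyms 1.95-fold. No member of this class had a fitted difference beyond 2 of its standard errors.

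Of the 8 other G1/S genes 7 were highest in KO2, and 4 were lowest in WT3. Uhrf1, which recruits the maintenance methyltransferase to new DNA, had 44.1, 38.7 and 34.9 CPM in WT and 39.3, 51.9 and 50.6 CPM in KO and a log2 fold change of 0.27 ± 0.14, the largest of the 18 S-phase and G1/S genes. Tk1, thymidine kinase, had 23.3, 19.8 and 14.7 CPM in WT and 21.6, 28.3 and 18.2 CPM in KO. Cdc6, a loader of the helicase, had 11.7, 10.5 and 5.70 CPM in WT and 6.70, 11.9 and 9.14 CPM in KO. All 3 were highest in KO2 and lowest in WT3. Cdt1, the other loading factor, had 53.4, 71.2 and 68.4 CPM in WT and 61.3, 71.5 and 67.9 CPM in KO, with WT1 as its lowest library. Gins2, a subunit of the active helicase, had 60.1, 54.8 and 51.9 CPM in WT and 56.5, 60.7 and 47.4 CPM in KO, but 67.3% of its exon bases lie in Gse1 on the opposite strand. Ccne1 and Ccne2, the cyclins of S-phase entry, had 13.6, 13.0 and 16.1 CPM in WT and 11.7, 13.3 and 19.4 CPM in KO for the former and 6.49, 3.99 and 3.47 CPM in WT and 2.77, 6.84 and 4.91 CPM in KO for the latter, of whose exon bases 17.4% are shared with Ints8. E2f1, the transcription factor of S-phase genes, had 13.2, 14.3 and 10.5 CPM in WT and 13.4, 16.4 and 11.0 CPM in KO.

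**Figure D3:**
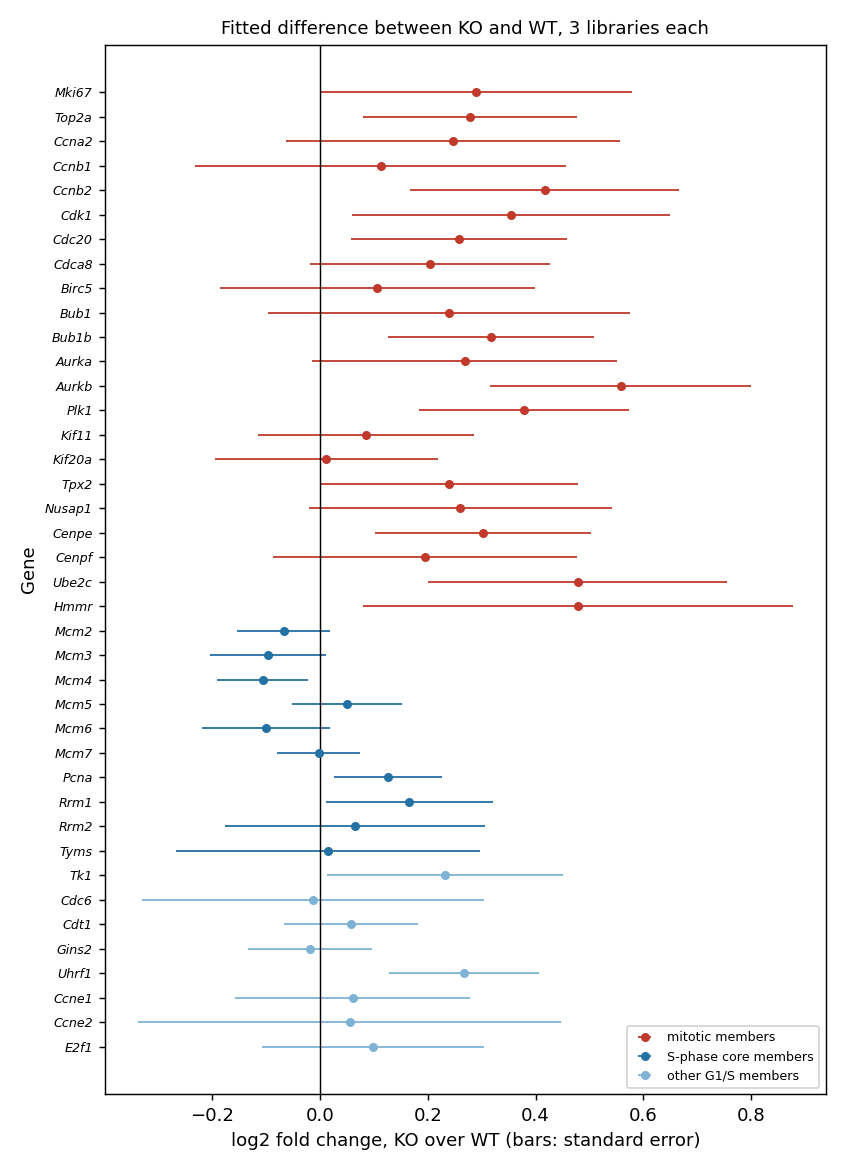
Fitted KO over WT log2 fold change of each of the 40 genes (points) with its standard error (bars), ordered by class; the vertical line is 0. All 22 mitotic points lie at or right of 0 and the S-phase core points lie on both sides, and no gene passed the adjusted threshold.

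The spread among libraries was set against counting error. The SD of log2 CPM over the 6 libraries was above 2 times the SD that counting alone would give in 22 of 22 mitotic, 7 of 10 S-phase core and 5 of 8 other G1/S genes, and in 42.9% of all genes tested. This ratio also depends on how many counts a gene has, and the difference between the classes was not tested. Mcm6, Pcna and Rrm1, at 3.62, 3.31 and 3.72 times, stood above mitotic genes such as Hmmr at 3.06 and Kif20a at 2.06. Mki67 had an SD of 0.47 on the log2 scale where counting gives 0.046, and Rrm2 had 0.35 where counting gives 0.086. Mcm7 had 0.048 where counting gives 0.054, so that its libraries differed by no more than counting error, and Mcm2 had 0.088 against 0.053. Ccne2, the least abundant in CPM, had 0.46 against 0.24. The median range from lowest to highest library was 2.0-fold for mitotic genes, 1.29-fold for the S-phase core and 1.43-fold for all genes tested.

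**Figure D4:**
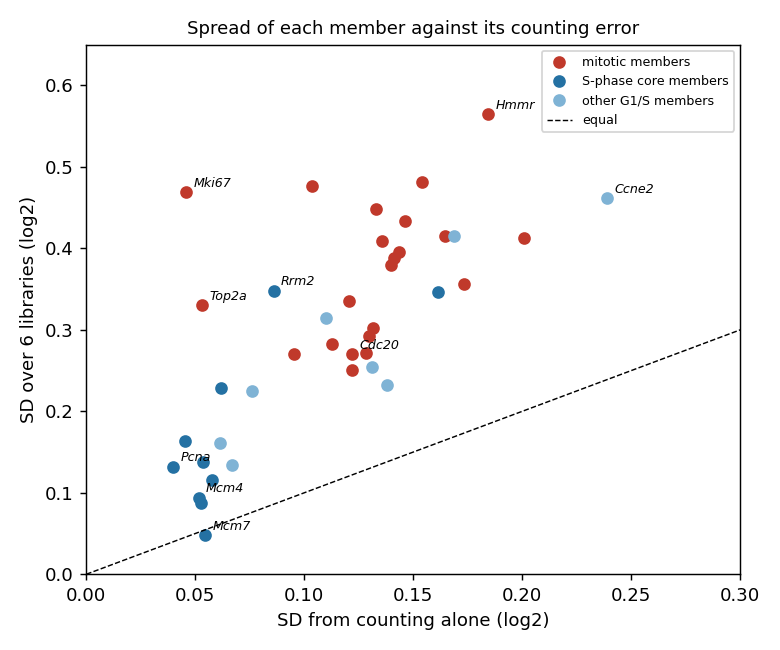
SD of log2 CPM over the 6 libraries against the SD that counting alone would give, 1 point per gene, coloured by class; the dashed line marks equality. All 22 mitotic genes lie above the line, as do most of the S-phase core, Hmmr highest at 0.56, and Mcm7 lies just below it at 0.048 against 0.054.

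Mitotic genes kept nearly the same highest and lowest library. Of the 22 genes, 21 were highest in KO2 (22.9% of all genes were) and 17 were lowest in WT3 (17.5% of all genes were). KO2 exceeded KO1 in 22 of 22 mitotic, 10 of 10 S-phase core and 8 of 8 other G1/S genes, against 6557 of all 13024 genes tested. WT1 exceeded WT3 in 22 of 22, 7 of 10 and 6 of 8, against 6528 of all genes tested. Summed over the class, mitotic mRNA reached 569, 472 and 350.0 CPM in WT1, WT2 and WT3 and 412, 712 and 555 CPM in KO1, KO2 and KO3, a 2.04-fold range. The same sums for the S-phase core were 843, 820.3 and 759 CPM in WT and 719.7, 840.5 and 863 CPM in KO, a 1.2-fold range. For the other G1/S genes they were 226, 226 and 206 CPM in WT and 213, 261 and 229 CPM in KO. The spread within each genotype was larger than the difference of the means for mitotic genes, 463 ± 109.5 CPM in WT against 560 ± 150.2 CPM in KO (SD, n = 3 each).

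Erythroid precursor markers moved in the same order of libraries. From highest to lowest, both lists ran KO2, WT1, KO3, WT2, KO1 and WT3. As a mean deviation on the log2 scale, mitotic genes stood at 0.19, -0.12 and -0.47 in WT1, WT2 and WT3 and at -0.23, 0.50 and 0.13 in KO1, KO2 and KO3, and erythroid markers at 0.36, -0.15 and -1.32 and -0.63, 1.56 and 0.18. CD8 T cell markers stood at -0.06, 0.33 and 0.30 in WT and -0.22, -0.61 and 0.26 in KO, lowest in KO2. With the mean log2 level of the erythroid markers as a covariate, an alternative chosen after the data were seen, the mitotic median log2 fold change was -0.0066 with 11 of 22 above 0, and that of the S-phase core was -0.089 with 1 of 10 above 0. That covariate shares the library order of the mitotic genes and was itself higher in KO (median log2 fold change 0.93). A smaller mitotic median is therefore built into this fit, which cannot show where the mitotic difference came from. The mean of the 6 activated T cell markers ran in nearly the order of the mitotic genes, with WT1 above KO2 and KO3, WT2, KO1 and WT3 following. It stood at 0.36, -0.13 and -0.22 in WT and -0.16, 0.17 and -0.01 in KO. The single activated T cell markers differed from that mean: 0 of 6 were highest in KO2, 2 of 6 were lowest in WT3, and KO2 exceeded KO1 in 3 of 6. Neutrophil precursor and B cell markers were also highest in KO2 but stood high in KO1, where mitotic genes were low. The part of any of these cell types in the mitotic values was not tested.

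**Figure D5:**
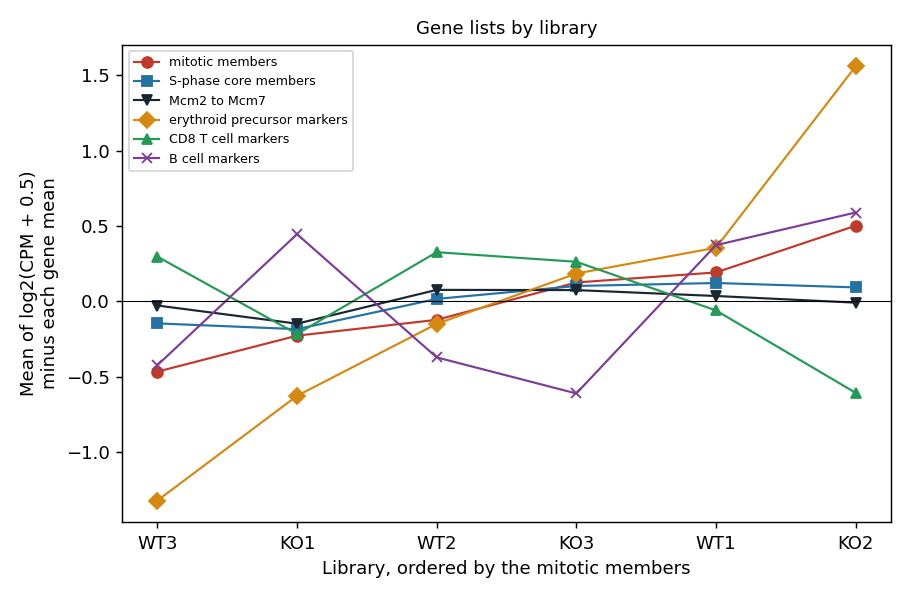
Mean log2(CPM + 0.5) of the mitotic genes, the S-phase core, Mcm2 to Mcm7 and the erythroid, CD8 T and B cell markers in each library, each gene taken relative to its own mean over the 6 libraries. Mitotic genes and erythroid markers share the order KO2, WT1, KO3, WT2, KO1, WT3, the erythroid range running from -1.32 to 1.56 and the mitotic one from -0.47 to 0.50.

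Within the 40 genes the likeness of profiles, given as Pearson r of log2 CPM over the 6 libraries, is a description without a test, since all values share the libraries and their depth. Pairs of mitotic genes had a median r of 0.85 (231 pairs), pairs of Mcm genes 0.54 (15 pairs), and a mitotic gene with an Mcm gene 0.26 (132 pairs). To the mean of the mitotic genes, each taken without itself, 19 of 22 mitotic genes had r above 0.8, Mki67 at 0.98 the most alike and Aurka at 0.66 the least. In the S-phase core Rrm1 (0.99), Rrm2 (0.94) and Pcna (0.85) were alike to that mean, and Mcm2 (-0.0078) and Mcm4 (-0.35) were not. Tyms (0.79), Mcm7 (0.72), Mcm5 (0.59), Mcm3 (0.54) and Mcm6 (0.18) lay in between. Of the other G1/S genes Uhrf1 (0.92), Ccne2 (0.88), Cdc6 (0.87) and Tk1 (0.83) were alike, while Cdt1 (-0.029) and Ccne1 (-0.014) were not, with E2f1 (0.63) and Gins2 (0.44) in between.

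To compare genes with each other, levels were divided by the length of the merged exons and given as CPM per kilobase, averaged over the 6 libraries. Pcna was the highest of the 40 at 64.1, ahead of Mcm6 at 25.9, Mcm4 at 25.7, Mcm3 at 22.8 and Cdt1 at 20.9. Mki67 was the highest mitotic gene at 12.6, and Cenpf the lowest of all at 0.848. The class median was 18.6 for the S-phase core, 4.81 for the other G1/S genes and 3.76 for the mitotic genes, all as CPM per kilobase.

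The S-phase genes were then set against the mitotic genes in each library, as the mean log2 CPM of the 10 S-phase core genes minus that of the 22 mitotic genes. This difference was 1.93 in WT1, 2.14 in WT2, 2.32 in WT3, 2.04 in KO1, 1.59 in KO2 and 1.97 in KO3. KO2 had the smallest excess of S-phase mRNA and WT3 the largest, and KO1 and KO3 lay within the WT range. The means were 2.13 ± 0.20 in WT and 1.87 ± 0.24 in KO (SD, n = 3 each), a difference of -0.26 that is slightly larger than the SD within either genotype and was given no test. It was -0.12 without KO2, -0.16 without WT3, and -0.36 without WT1.

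Further genes of the same processes, in 4 lists picked by role, had 0 genes past the adjusted threshold in each list (edgeR). Of 60 other mitosis genes, 48 had a log2 fold change above 0 (median 0.14), and 1 of 60 passed an unadjusted p of 0.05, in the lower direction, where 6.25% of all genes passed it in either direction. That gene was Pttg1, securin, the inhibitor of the protease that splits sister chromatids. It had 30.1, 31.0 and 32.9 CPM in WT and 22.1, 19.4 and 19.7 CPM in KO, so that all 3 KO libraries lay below all 3 WT libraries, with a log2 fold change of -0.62 ± 0.11 and an edgeR adjusted p of 0.307. In this list 3 of 60 genes did not overlap between the genotypes, against 11.5% of all genes. Kif2c and Nek2 were next in order of p, with log2 fold changes of 0.58 ± 0.27 and 0.52 ± 0.25 and adjusted p-values of 0.807 and 0.816.

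The 46 other replication genes were centred near all genes, with a median log2 fold change of 0.031 and 28 above 0, and 0 passed an unadjusted p of 0.05. The 3 nearest to it were Rnaseh2a (-0.24 ± 0.11), Pole (0.31 ± 0.14) and Rfc5 (0.30 ± 0.17), a ribonuclease H2 subunit, a polymerase and a subunit of the clamp loader. Of 19 G1 cyclins, kinases and inhibitors, 16 were tested, with 7 above 0 (median -0.033) and 3 higher and 1 lower at an unadjusted p under 0.05 (4 of 16, where 6.25% of all genes did). Among them Ccnd1, cyclin D1, had 35.6, 35.1 and 36.5 CPM in WT and 55.3, 56.2 and 44.5 CPM in KO, with no overlap (4 of 16 genes of the list did not overlap, against 11.5% of all genes), a log2 fold change of 0.54 ± 0.11 and an edgeR adjusted p of 0.427. The adjusted p became 0.0401 without KO3, the only 1 of 15 alternatives in which Ccnd1 passed. In that fit 94 genes passed over the whole table. Cdkn1a, the inhibitor p21, had 9.0, 7.63 and 8.92 CPM in WT and 10.5, 19.1 and 10.9 CPM in KO and a log2 fold change of 0.66 ± 0.26, with an adjusted p of 0.786. Cdk2, the kinase partner of cyclin E, was the remaining gene, named after its values were seen, with 34.2, 30.7 and 30.2 CPM in WT and 38.1, 50.4 and 34.7 CPM in KO and a log2 fold change of 0.37 ± 0.15. Cdk4, the kinase partner of cyclin D, had 120.3 ± 6.05 CPM in WT and 105 ± 4.87 CPM in KO, and its log2 fold change of -0.20 ± 0.080 had an adjusted p of 0.786. Of 17 cell cycle transcription factors 11 were above 0 (median 0.031), with E2f8 (0.65 ± 0.30), E2f2 (0.26 ± 0.15) and Tfdp2 (0.23 ± 0.14) the nearest to the threshold.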

How the data were processed

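Per the labels, column-purified RNA went into SMARTER mRNA-Seq libraries. The values the authors deposited are expected counts by their form (estimated, not always whole) for each Ensembl gene; between 3527 and 4925 values per library were fractions, and 22 of the 40 genes had at least 1. The submitters' processing notes name GRCm38 and mm10; aligner, counter and use of strand are not given in the sources used here. Counts were rounded and analysed in R 4.3.3 with edgeR 4.0.16 (TMM factors from 0.989 to 1.01, filterByExpr at its defaults of 10 counts and a total of 15, glmQLFit and glmQLFTest, all 6 libraries, no covariate), with Benjamini-Hochberg adjustment over 13024 genes at 0.05. Fold changes are KO over WT. Log2 levels used CPM plus 0.5. Symbols, positions and exon lengths came from GENCODE M21 (GRCm38), which holds 44121 of the 44678 identifiers. Library totals lay between 8143971 and 8876570 counts.

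The 40 genes and all lists were chosen with earlier results of these data known, so lists are described by counts and medians only. All 40 genes could be named; of 4 lists of other cell cycle genes, those with the 3 smallest p-values were named where none passed, and of each marker list the 2 with the highest mean; the non-members most alike in profile were named by Pearson r among genes with a mean of at least 1 CPM. Alternatives were DESeq2 1.42.0, limma 3.58.1 (voom), upper-quartile scaling, library totals, 2 other filters, a replicate block, removal of 404 globin and immunoglobulin genes, each library left out, and, added after the data were seen, the erythroid markers as a covariate. Count tests were tested on simulated data. No libraries were duplicates: chi-square per degree of freedom between libraries of a genotype was 6.31 to 23.4.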

Additional observations from a re-analysis of the deposited data

How the results depend on the processing

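In all 15 alternatives 0 of the 40 genes passed the adjusted threshold, the smallest adjusted p of a member being 0.35 (edgeR, without KO3). The number of genes called over the whole table moved: from 4 to 56 with DESeq2 (51 higher, 5 lower), 12 with no filter on low counts, 9 with the replicate block, and 2 to 94 when each library was left out, 94 without KO3 and 2 without WT1 or without WT3; the cause was not tested. Same-numbered libraries of the genotypes correlated at -0.0066, -0.22 and 0.13 in their deviations, and WT1 correlated best with KO2. These values show no pairing by number, but they are too few to exclude it. The replicate block called 0 members with a mitotic median log2 fold change of 0.27.

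Leaving out each library gave medians from 0.038 to 0.43 for the mitotic genes, -0.096 to 0.047 for the S-phase core, -0.027 to 0.17 for the other G1/S genes and 0.0025 to 0.35 for all 40, and S-phase minus mitotic differences from -0.36 to -0.12. The other 8 planned fits gave mitotic medians from 0.24 to 0.28, the S-phase core median turned to -0.0041 with upper-quartile scaling and -0.013 with no filter, and the sum-based, library-total and 18-gene versions of the S-phase minus mitotic difference were -0.27, -0.26 and -0.22. With the erythroid covariate the medians were -0.0066 (mitotic), -0.089 (S-phase core), -0.00051 (other G1/S) and -0.037 (all 40).

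Of the 40 genes, 25 changed sign of the fitted log2 fold change in at least 1 of the 15 alternatives and 15 (9 of them mitotic) in none, and the cause was not tested. The sign turned for Kif20a -0.00020 with upper-quartile scaling, for Mcm7 0.017, Cdc6 0.0059 and Gins2 0.0012 with library totals, for Kif20a -0.0080 and Tyms -0.0032 with no filter, and for Cdc6 0.012 with the replicate block. With the erythroid covariate the log2 fold changes that turned were Mki67 -0.094, Ccna2 -0.13, Ccnb1 -0.24, Birc5 -0.21, Bub1 -0.13, Kif11 -0.15, Kif20a -0.17, Tpx2 -0.036, Nusap1 -0.028, Cenpf -0.11, Hmmr -0.039, Mcm5 -0.0046, Rrm1 -0.0053, Rrm2 -0.23, Tyms -0.19, Ccne2 -0.37 and E2f1 -0.040. Those that turned when a library was left out ranged over Ccna2 -0.026 to 0.46, Ccnb1 -0.18 to 0.41, Cdca8 -0.0055 to 0.35, Birc5 -0.13 to 0.35, Bub1 -0.067 to 0.51, Aurka -0.0080 to 0.43, Kif11 -0.11 to 0.23, Kif20a -0.17 to 0.18, Hmmr -0.0026 to 0.79, Mcm5 -0.030 to 0.12, Mcm6 -0.24 to 0.00013, Mcm7 -0.052 to 0.022, Rrm2 -0.16 to 0.27, Tyms -0.20 to 0.31, Cdc6 -0.28 to 0.19, Cdt1 -0.062 to 0.14, Gins2 -0.10 to 0.055, Ccne1 -0.21 to 0.19, Ccne2 -0.28 to 0.37 and E2f1 -0.060 to 0.21.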

Other observations

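Among the 12954 other genes with a mean of at least 1 CPM, those most alike in profile over the 6 libraries to the mean of the mitotic genes were Orc1 (r = 0.99), a subunit of the origin recognition complex, Ncapg (0.99), a condensin subunit, Fhdc1 (0.99), Ifi44 (0.99), Nipa2 (0.99), Foxk2 (0.99), Hba-a1 (0.99), an alpha globin, Dhx58 (0.99), Iqgap3 (0.99) and Igkv4-69 (0.98). The 100 most alike genes held 8 of 60 other mitosis genes, 2 of 46 other replication genes and 8 of 10 erythroid precursor markers. With the S-phase core mean the most alike were Cdc27 (0.99), a subunit of the anaphase-promoting complex, ENSMUSG00000106857 (0.98), Asns (0.98), Ddx58 (0.98), Gm9762 (0.98), March5 (0.98), 4833439L19Rik (0.97), Zfp655 (0.97), Ythdf1 (0.97) and Ckap2 (0.96), and the 100 most alike held 6 of 60 other mitosis genes, 5 of 46 other replication genes and 1 of 10 erythroid precursor markers. With 6 points and this many genes such values of r are a description only.

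The same letters were searched in promoter windows of genes outside the 40, again counted by gene. In the 51 windows of other mitosis genes TTTGAA occurred in 36 (70.6%), TTTAAA in 7, CCAAT in 34 and E2F-like letters in 4. In the 37 windows of other replication genes TTTGAA occurred in 9 (24.3%), TTTAAA in 2, CCAAT in 23 and E2F-like letters in 12. In the 15 windows of G1 cyclins, kinases and inhibitors they occurred in 2, 2, 8 and 3, in that order, and in the 12 windows of cell cycle transcription factors in 5, 1, 8 and 5. Differences between these lists were not tested.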
